A study of Mus musculus with 2 samples.

Results

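The Mir23, Mir27 and Mir24 genes form a pair of paralogous microRNA clusters in the mouse genome. The chromosome 8 cluster holds Mir23a, Mir27a and Mir24-2, and the chromosome 13 cluster holds Mir23b, Mir27b and Mir24-1. These 6 genes were taken by name, in GENCODE release M21, from tables that list 2202 microRNA genes. The libraries came from left cerebral cortex of B6CASTF1/J females, an F1 hybrid of B6 and CAST mice, at an age of 25 days. There was 1 group with 2 biological replicates and no treatment, so no conditions were compared. The labels number the animals apart but give both libraries 1 donor record, so the spread between them may be technical.

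MicroRNA clusters of this kind are made as 1 long primary transcript, from which each hairpin is cut out by Drosha and then trimmed by Dicer into a 5p and a 3p arm. An arm loaded into an Argonaute protein finds messenger RNAs mainly through its seed, bases 2 to 8. In the brain, miR-23 genes are known from astrocytes and blood vessel cells, and miR-23a is known from myelinating oligodendrocytes. miR-27 is known for regulating lipid metabolism and vessel sprouting, and miR-24 for regulating cell division and apoptosis.

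Mature sequences are shown because the likeness of the paralogs decides which reads can be told apart. They are from RefSeq on GRCm38.p6, written 5′ to 3′ with the seed in capitals. The table matched all 6 genes, with 11 entries and 10 distinct sequences. The miR-23 genes give miR-23a-5p, miR-23a-3p, miR-23b-5p and miR-23b-3p.
miR-23a-5p: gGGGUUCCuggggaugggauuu
miR-23b-5p: gGGUUCCUggcaugcugauuu
miR-23a-3p: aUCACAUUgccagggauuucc
The miR-27 arms follow.
miR-27a-5p: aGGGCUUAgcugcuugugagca
miR-27b-5p: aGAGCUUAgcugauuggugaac
miR-27a-3p: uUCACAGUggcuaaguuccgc
miR-27b-3p: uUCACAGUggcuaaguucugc
The miR-24 genes share their 3p arm.
miR-24-1-5p: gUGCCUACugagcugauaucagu
miR-24-2-5p: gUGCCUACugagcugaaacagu
miR-24-3p: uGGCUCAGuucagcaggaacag

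Counting from the 5′ end, miR-27a-3p and miR-27b-3p differed by the single substitution C19U, with the first 18 bases and the seed the same. miR-23a-3p occurred whole in the Mir23a hairpin alone and, with at most 1 substitution, also in the Mir23b hairpin. All 22 bases of miR-24-3p stood in both Mir24 hairpins. miR-27a-5p and miR-27b-5p differed at 8 of 22 positions, and the miR-23 5p arms shared at most 10 bases in a row. Neither of these 5p pairs shared a seed. The miR-24 5p arms shared their seed and their first 16 bases and then diverged. Among the hairpins of all 2202 counted genes, each of the 6 hairpins shared a stretch of at least 20 bases with its paralog and with no other gene. The longest such stretch was 28 bases for the Mir24 pair and 20 bases for the other pairs.

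Both clusters lie on the plus strand in the order miR-23, miR-27, miR-24. On mm10, Mir23a (ENSMUSG00000065611.1) lies at chr8:84208518-84208592, Mir27a (ENSMUSG00000065444.1) at chr8:84208672-84208758 and Mir24-2 (ENSMUSG00000065541.1) at chr8:84208815-84208921. This cluster spans 404 bp. Of other genes on its strand, only the long noncoding RNA gene Gm26532 overlaps it, by 2 bp in exon 1, at the end of Mir24-2. Mir23b (ENSMUSG00000065599.2) lies at chr13:63300484-63300557, Mir27b (ENSMUSG00000065475.2) at chr13:63300712-63300784 and Mir24-1 (ENSMUSG00000105904.1) at chr13:63301208-63301275. This cluster spans 792 bp inside 2010111I01Rik, the aminopeptidase O gene, and opposite to an intron of Fancc, a Fanconi anaemia gene. Mir23b is intronic. Mir27b lies within exon 6 of an annotated 2010111I01Rik transcript subject to nonsense-mediated decay, and Mir24-1 within exon 2 of another such transcript. Each Mir24 hairpin is overlapped on the minus strand by another microRNA gene, Mir3074-2 on chromosome 8 and Mir3074-1 on chromosome 13.

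**Figure D1:**
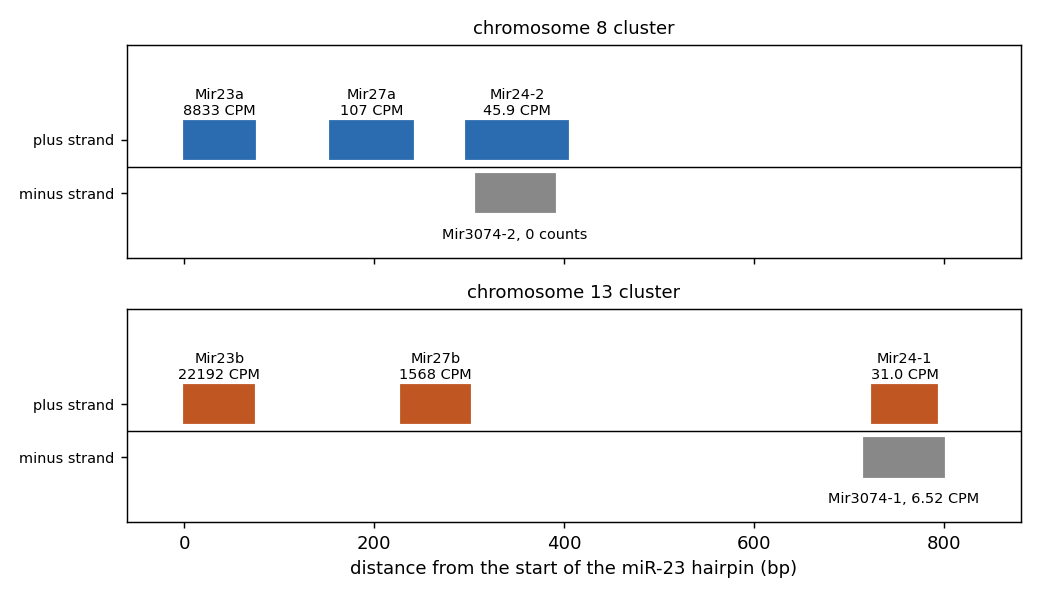
Map of both clusters, with distance in bp from the start of the miR-23 hairpin on the x axis, hairpins as boxes on their strand and the mean level of each gene over 2 libraries in CPM. In counted reads, levels fall from the first to the last gene of each cluster. They go from 8833 to 45.9 CPM on chromosome 8 and from 22192 to 31.0 CPM on chromosome 13. The counts leave out reads placed at several loci, and the last genes of the clusters share a mature arm. Their values are therefore no measure of the level of that arm, and a fall in mature microRNA along a cluster was not tested.

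The values are read counts per hairpin, which join the 5p and 3p arms, from 3017058 counts on the strand of microRNA genes in replicate 1 and 3209361 in replicate 2. CPM is the count scaled to these totals in the usual way. A count of 0 allows up to 0.994 and 0.935 CPM, taken as 3 counts. Reads placed at several loci, 40.3% and 39.0% of all reads, are a class of their own and outside every gene count. Of the marker genes for cell types in cortex, 6 of 9 neuron genes reached 10 counts in each library, here called detected. The neuron genes not detected were the Mir124a genes. The list summed to 213555 and 200720 CPM, of which Mir139 alone gave 155820 and 141898 CPM. The astrocyte list, of whose 5 genes 4 are Mir23a, Mir23b, Mir27a and Mir27b, summed to 40527 and 35466 CPM. The mural genes summed to 6298 and 3730 CPM and the immune and microglia genes to 2844 and 2401 CPM. Like the sums of the neuron and astrocyte lists, both sums were lower in replicate 2. Single genes of the neuron and astrocyte lists did not all follow their sum. In CPM, Mir128-1, Mir128-2, Mir27a and Mir27b were higher in replicate 2, while the other detected genes of these lists were lower. The oligodendrocyte genes summed to 3662 and 5626 CPM, the endothelial gene Mir126a stood at 5714 and 8835 CPM and the red blood cell genes summed to 51.0 and 75.4 CPM, all higher in replicate 2. The part of these cell types in the results was not tested. The single liver gene stood at 46.7 and 51.1 CPM, and 4 of 5 striated muscle genes had no counts. In such bulk tissue, fewer cells of a type and less RNA per cell cannot be told apart.

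All 6 genes were detected, against 395 of 2202 genes (17.9%) in the tables. Together they held 3.51% of counts in replicate 1 (exact 95% binomial interval 3.49 to 3.53) and 3.05% in replicate 2 (3.03 to 3.07), or 3.28% ± 0.326 (SD, n = 2). The chromosome 13 cluster supplied 72.6% ± 0.280 of this sum and the chromosome 8 cluster 27.4% ± 0.280 (SD, n = 2). Nearly all of these counts came from the miR-23 genes, with 94.6% ± 1.93, while the miR-27 genes gave 5.20% ± 1.81 and the miR-24 genes 0.241% ± 0.121 (SD, n = 2). The counts leave out reads placed at several loci, so 0.241% is no measure of the share of miR-24-3p. These intervals and the floor above take in counting error alone, because PCR copies without molecular identifiers are not separate molecules.

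Mir23b, the first gene of the chromosome 13 cluster, had 72683 counts in replicate 1 and 65126 in replicate 2, or 24091 and 20293 CPM. Mir23a, its paralog, had 28847 and 26014 counts, or 9561 and 8106 CPM. Mir23b was above Mir23a in both libraries, and both were somewhat higher in replicate 1. They ranked 11 and 25 by mean CPM among the 2202 genes.

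Mir27b, the middle gene on chromosome 13, had 3873 and 5944 counts, or 1284 and 1852 CPM. Its paralog Mir27a had 279 and 392 counts, or 92.5 and 122 CPM. Both were higher in replicate 2, and the ranges of the paralogs lay far apart. Mir27b ranked 85 and Mir27a 196, near the median of 101 CPM over detected genes.

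Mir24-2 had 89 and 200 counts, or 29.5 and 62.3 CPM, and Mir24-1 had 75 and 119 counts, or 24.9 and 37.1 CPM. The ranges of the Mir24 genes overlapped, and both were higher in replicate 2. They ranked 235 and 254. Their shared arm miR-24-3p cannot be assigned to either hairpin by sequence, and how many of its reads were among those placed at several loci was not tested. These counts are therefore no measure of the level of miR-24-3p.

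**Figure D2:**
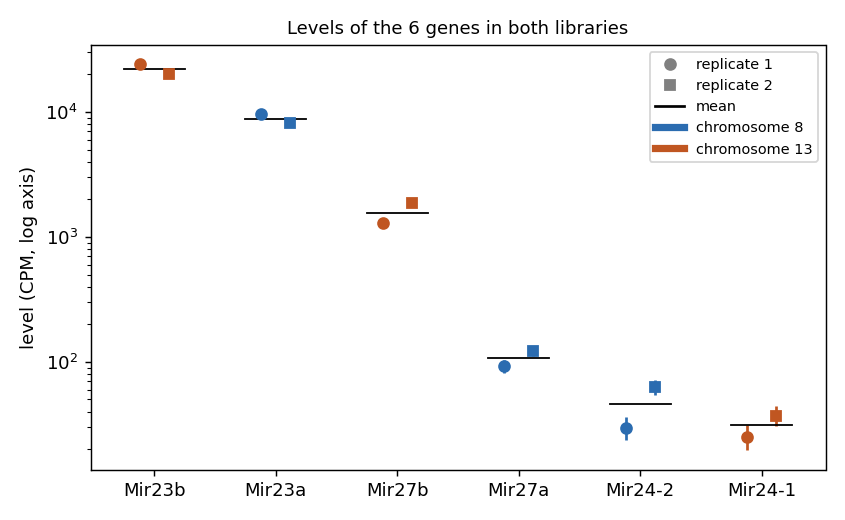
Level of each gene in CPM on a log axis, with circles for replicate 1, squares for replicate 2, exact 95% counting intervals and a black line at the mean. The genes are ordered by mean level, from Mir23b at 22192 CPM to Mir24-1 at 31.0 CPM, and colour gives the cluster. Reads placed at several loci are left out of these levels.

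By mean level the order was Mir23b (22192 ± 2686 CPM), Mir23a (8833 ± 1029 CPM), Mir27b (1568 ± 402 CPM), Mir27a (107 ± 20.98 CPM), Mir24-2 (45.9 ± 23.2 CPM) and Mir24-1 (31.0 ± 8.64 CPM), each with SD and n = 2. The ranges over the libraries did not overlap for any neighbours in this order except the Mir24 genes. Hairpin lengths ran from 68 to 107 bases. Divided by hairpin length, the mean levels of neighbours differed by 2.55-fold for Mir23b over Mir23a, 5.48-fold for Mir23a over Mir27b, 17.4-fold for Mir27b over Mir27a and 2.87-fold for Mir27a over Mir24-2. For the Mir24 genes the order turned, with a ratio of 0.942 for Mir24-2 over Mir24-1 per hairpin base. The mature arms shown above are 21 to 23 bases long whatever the hairpin length, so counts need not scale with it.

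Genes closest in level over the 2 libraries, by Euclidean distance of log2(CPM + 1), were Mir770 for Mir23b (distance 0.143), Mir151 for Mir23a (0.0709) and Mir130a for Mir27b (0.0614). For Mir27a, Mir24-2 and Mir24-1 they were Mir184 (0.210), Mir8112 (0.163) and Mir190a (0.0298). With 2 libraries this measures likeness of level and of the replicate difference alone.

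Between paralogs, the chromosome 13 copy gave more counts for miR-23 and miR-27. Mir23b had 2.52 times the counts of Mir23a in replicate 1 (95% counting interval 2.49 to 2.55) and 2.50 times in replicate 2 (2.47 to 2.54), a log2 ratio of 1.329 ± 0.00654 (SD, n = 2). Mir27b had 13.9 times the counts of Mir27a in replicate 1 (12.3 to 15.7) and 15.2 times in replicate 2 (13.7 to 16.8), a log2 ratio of 3.86 ± 0.0901. Per hairpin base the ratios were 2.55 and 2.54 for miR-23 and 16.5 and 18.1 for miR-27.

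For miR-24 the chromosome 13 copy gave fewer counts in both libraries. Mir24-1 had 0.843 times the counts of Mir24-2 in replicate 1 (0.611 to 1.16) and 0.595 times in replicate 2 (0.470 to 0.750), and the log2 ratio was -0.50 ± 0.36. The interval of replicate 1 included 1, and per hairpin base the ratios were 1.33 and 0.936, on both sides of 1. Counts of the near-identical miR-23 and miR-27 pairs also carry uncertainty, because a read that does not reach a differing base fits both hairpins.

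Within each cluster, neighbouring genes gave very unequal counts. On chromosome 8, Mir23a had 103 and 66.4 times the counts of Mir27a and 324 and 130 times those of Mir24-2 in replicates 1 and 2. On chromosome 13, Mir23b had 18.8 and 11.0 times the counts of Mir27b and 969 and 547 times those of Mir24-1. Per hairpin base, these ratios were 120 and 77.0, 462 and 186, 18.5 and 10.8, and 891 and 503, in the same order. The miR-23 gene thus held 98.3% ± 0.683 of the chromosome 8 cluster and 93.2% ± 2.38 of the chromosome 13 cluster (SD, n = 2). Mir27b made up 6.70% ± 2.33 of its cluster, and Mir27a 1.21% ± 0.367 of its own.

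**Figure D3:**
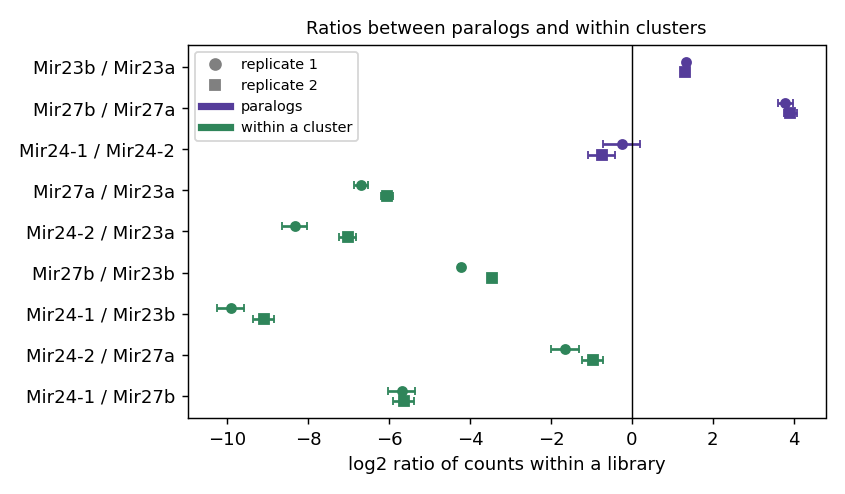
Log2 ratios of counts in each library (circles replicate 1, squares replicate 2) with 95% counting intervals, for paralogs in violet and for genes of 1 cluster in green. Between the replicates the paralog ratios change by -0.0093 for miR-23, 0.13 for miR-27 and -0.50 for miR-24, and each within-cluster ratio is less negative in replicate 2, by 0.048 for Mir24-1 over Mir27b up to 1.32 for Mir24-2 over Mir23a.

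In the tables, 81 pairs of detected genes lie on the same strand within 1 kb of each other, and 6 of them are pairs within these clusters. The other 75 pairs differed by a median of 5.26-fold in counts and 5.69-fold per hairpin base. The 6 pairs had a median of 64.9-fold in counts and 67.4-fold per base. Mir23b and Mir24-1, at 728-fold (geometric mean of the libraries), were the most unequal pair of the 81, and Mir23a and Mir24-2, at 205-fold, were second. Mir23a and Mir27a at 82.8-fold ranked 6, Mir27b and Mir24-1 at 50.8-fold ranked 8, Mir23b and Mir27b at 14.3-fold ranked 27, and Mir27a and Mir24-2 at 2.48-fold ranked 62. The pairs ranked 1, 2, 8 and 62 each hold a Mir24 gene, whose counts leave out reads placed at several loci. The pairs share genes and libraries, so this is a description with no test.

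**Figure D4:**
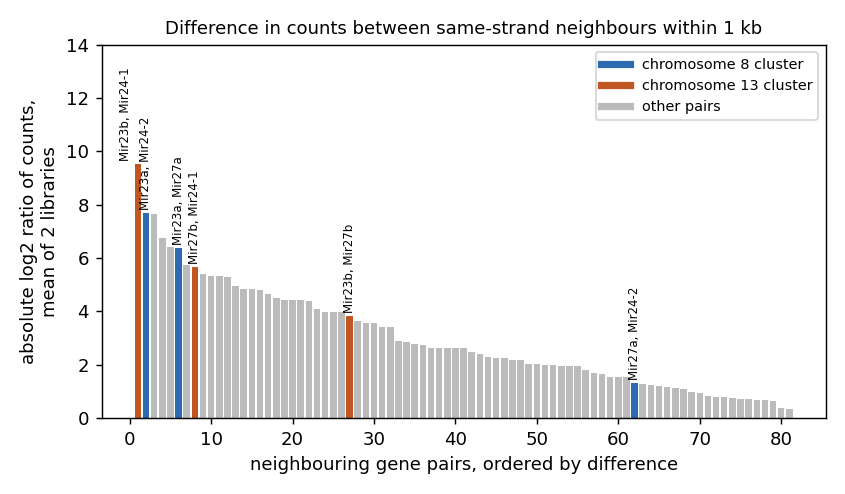
Absolute log2 ratio of counts, as the mean of 2 libraries, for 81 pairs of detected microRNA genes on the same strand within 1 kb, ordered by size. Coloured bars are the 6 pairs within the clusters, of which Mir23b with Mir24-1 and Mir23a with Mir24-2 stand first and second.

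Between the replicates, both miR-23 genes were higher in replicate 1, and Mir27b and Mir24-2 were higher in replicate 2. Ratios of replicate 2 over replicate 1 were scaled by TMM, which estimates library sizes from the bulk of genes, and tested per gene by a two-sided exact binomial test over the 496 genes that reached 10 counts in sum. This test compares the libraries, not conditions, and takes in counting noise alone, with PCR copies treated as separate molecules. Of the 6 genes, 4 were called at a Benjamini-Hochberg adjusted p under 0.05, against 280 of 496 tested genes (56.5%). Higher in replicate 1 were 2 of the 6, against 30.6% of tested genes, and higher in replicate 2 were 2 of the 6, against 25.8%.

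Mir23a and Mir23b were higher in replicate 1 by nearly the same amount, with log2 ratios of -0.47 (95% counting interval -0.49 to -0.44) and -0.48 (-0.49 to -0.46). Mir27b was higher in replicate 2, with a log2 ratio of 0.30 (0.24 to 0.36, exact binomial test, adjusted p = 1.68e-23). Mir24-2 was also higher in replicate 2, at 0.85 (0.48 to 1.23, exact binomial test, adjusted p = 5.39e-06). Mir27a at 0.17 (-0.052 to 0.40, adjusted p = 0.19) and Mir24-1 at 0.35 (-0.081 to 0.78, adjusted p = 0.17) did not pass the exact binomial test. With library totals in place of TMM, which moved ratios by 0.23 on the log2 scale, all 6 genes were called in these same directions (adjusted p = 0.000884 for Mir27a and 0.0124 for Mir24-1), and the split over all tested genes turned, with 102 toward replicate 1 and 180 toward replicate 2. Of the detected genes, 47.6% had a larger absolute log2 ratio than Mir23b and 22.0% a larger one than Mir24-2.

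**Figure D5:**
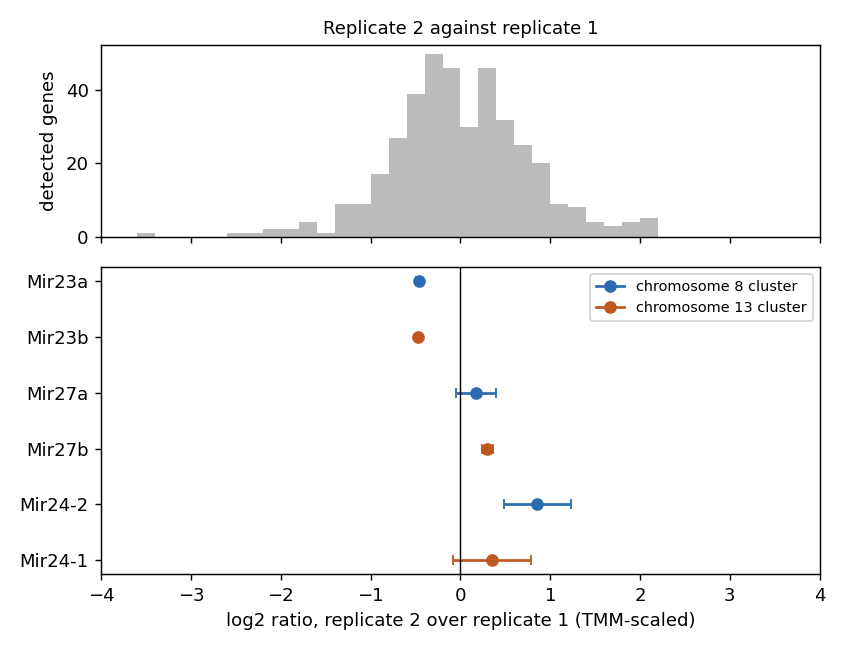
Log2 ratio of replicate 2 over replicate 1 after TMM scaling, as a histogram over 395 detected genes (top) and for the 6 genes with 95% counting intervals (bottom). Mir23a and Mir23b lie to the left of 0 at -0.47 and -0.48, the other 4 genes to the right, and all lie within the bulk of the histogram.

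From replicate 1 to replicate 2 the log2 ratio changed by -0.0093 for Mir23b over Mir23a, by 0.13 for Mir27b over Mir27a and by -0.50 for Mir24-1 over Mir24-2. The Mir24 value rests on 75 to 200 counts a gene. With the miR-23 gene as denominator, the changes within clusters were 0.64 for Mir27a over Mir23a, 0.78 for Mir27b over Mir23b, 0.82 for Mir24-1 over Mir23b and 1.32 for Mir24-2 over Mir23a. With the miR-27 gene as denominator, ratios added after the other values were seen, the changes were 0.68 for Mir24-2 over Mir27a and 0.048 for Mir24-1 over Mir27b. The ranges of paralog and within-cluster changes thus overlapped. Over the other 75 neighbouring pairs, the median absolute change was 0.80, beside 0.73 for the 6 pairs. A difference in size between paralog and within-cluster changes was not tested.

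On the opposite strand the clusters gave few reads. Mir3074-1, over Mir24-1, had 13 and 28 counts, or 4.31 and 8.72 CPM, and Mir3074-2, over Mir24-2, had 0 in both libraries. In the deposited column that ignores strand, both Mir24 genes and both Mir3074 genes have 0 counts, and 198617 and 215418 reads stand in its class of ambiguous reads, a class with 0 in the stranded columns. Mir23a, Mir23b, Mir27a and Mir27b have the same counts in both columns. No other gene in the RefSeq table shares a seed with a miR-23, miR-27 or miR-24 5p arm or with miR-23a-3p or the miR-27 3p arms. The miR-24-3p seed recurs in Mir5124b, Mir6369, Mir6410 and Mir6413, each with 0 counts in both libraries.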

How the data were processed

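Small RNAs under 30 nt from 2 cortex libraries were analysed. Per the file headers, the authors counted reads per microRNA gene on mm10 with GENCODE M21. The names of aligner and counter were not given in the sources used here, nor were filters. The deposited values are raw counts in 3 columns, read from their values as either, own and opposite strand, and the own-strand column was used. The 4 classes of reads outside genes were left out of totals. All 2202 identifiers matched M21. Ratios between genes used counts within a library, with conditional exact binomial intervals. Replicates were compared by an exact binomial test per gene with Benjamini-Hochberg adjustment, given TMM sizes from edgeR 4.0.16 over genes with at least 10 counts. The test was run on counts simulated with counting noise alone and given library totals. That check does not cover TMM sizes, PCR copies or further spread between replicates. DESeq2 1.42.0 size factors, library totals, other count minimums, the either-strand column, hairpin length, 1 added count, all reads as denominator and leaving out each replicate were alternatives. Named genes were the 6 members, microRNA genes within 10 kb, the closest gene to each in level, genes of the Mir29, Mir181 and Mir15/16 families and genes sharing a seed. The members and lists were chosen with earlier results of these data known. Python 3.11.15, scipy 1.17.1 and R 4.3.3 were used.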

Additional observations from a re-analysis of the deposited data

Results flagged for a closer look

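Reads on the strand opposite to Mir24-1, in a column that the comparisons do not use, were above the 3 counts taken as the limit that a count of 0 allows. They numbered 13 in replicate 1 and 28 in replicate 2, and equal the counts of Mir3074-1 on its own strand. The other 5 genes had 0 opposite-strand counts in both libraries.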

How the results depend on the processing

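No paired analysis was possible because there is a single group. Of the alternative values, apart from those that leave out a replicate, 50 kept their direction and their call or, untested, moved by less than 1 SD of the replicates (counts of genes, by less than 1.5 times). With all reads as the denominator the share of the 6 genes was 1.15%. Per hairpin base the mean log2 ratio was 1.35 for Mir23b over Mir23a, 4.11 for Mir27b over Mir27a and 0.16 for Mir24-1 over Mir24-2, where the sign turned because the hairpins differ in length. It was -5.56 for Mir24-1 over Mir27b, a ratio added after seeing the data. Leaving out 1 of 2 libraries gives the value of the other, and the share then ranged from 3.05% to 3.51%. Library totals brought Mir27a (log2 ratio 0.40) and Mir24-1 (0.58) past the threshold. The number of called genes ranged from 234 to 282 over alternatives, and their share of tested genes depended on the count minimum, with 234 of 291 genes (80.4%) at 100 counts and 273 of 742 (36.8%) at 1 count. The either-strand column gave no Mir24 value. Depth limits the Mir24 genes, with at most 200 counts, and 2 libraries limit every SD.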

Other observations

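Other families with duplicated clusters gave the following values, compared after the values of the 6 genes were seen. In the Mir29 family, known from maturing neurons and glia, the neighbours Mir29a and Mir29b-1 stood at 5296 ± 287 and 63.2 ± 19.0 CPM, and Mir29c and Mir29b-2 at 480 ± 9.17 and 80.6 ± 30.5 CPM (SD, n = 2). Mir29b-1 and Mir29b-2 had log2 ratios of replicate 2 over replicate 1 of 0.40 and 0.56, while Mir29a and Mir29c were at -0.34 and -0.27. In the Mir181 family, Mir181b-2 and Mir181d were at -0.45 and -0.34, beside their neighbours Mir181a-2 at 1.93 and Mir181c at 0.50. Mir181a-1 and Mir181b-1 were at 0.11 and -0.19, so that the paralogs Mir181a-1 and Mir181a-2 differed by 1.82. Of the Mir15 and Mir16 genes, Mir15a stood at 1.75 and its paralog Mir15b at -0.24, and Mir16-1 at 0.19 and Mir16-2 at -1.07.

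Of the 395 detected genes, 356 had a mature arm in RefSeq. They formed 33 other pairs with an arm of equal length that was identical or differed by 1 substitution. The median absolute difference of the replicate log2 ratios over these pairs was 0.29, with a range from 0.0020 to 1.82. In 28 pairs the ratios had the same sign. Over the 75 other neighbouring pairs, 43 had ratios of opposite sign, as did 4 of the 6 pairs within the clusters. Pairs share genes, and the comparison was chosen after seeing the data, so no test is given.

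Mir181c, 29556 bp upstream of Mir23a on the opposite strand of chromosome 8, stood at 1546 ± 543 CPM.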
